A study of Homo sapiens with 10 samples.

Results

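The genes described here are 55 genes for mitotic entry, the spindle, kinetochores, the checkpoint, condensin and cytokinesis. They were picked by name and function, with earlier results of these data in view, and all of them are among the 16143 genes that passed the filter on low counts. Cyclin-dependent kinase 1 and its cyclins drive the entry into mitosis, with the condensation of chromosomes and the building of the spindle. Kinetochores then tie each chromosome to spindle microtubules, and the spindle checkpoint holds back anaphase until every chromosome is attached. The anaphase-promoting complex next releases the sister chromatids, and cytokinesis parts the daughter cells. Many of the genes for these proteins are switched on together late in the cell cycle, by the transcription factor FOXM1 and by complexes that bind CCAAT boxes and a short promoter element called the CHR, so their transcript levels are widely read as a mark of proliferating cells.

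U2OS is a human osteosarcoma cell line, spelled U20S in the sample labels. The cells received pooled siRNAs for a control knockdown (siCtrl) or a knockdown of the helicase gene DDX41 (siDDX41), and RNA was taken after 48 h. Polyadenylated RNA of 5 libraries per group was sequenced, and the comparison asks which transcripts differed once DDX41 was depleted. The labels do not say whether the replicates are separate cultures, so p-values measure the spread between these libraries, which may be technical. One siRNA pool stands for the knockdown, and no rescue was analysed here. Total counts lay between 23393764 and 24598860 per control library and between 21807041 and 24896398 per knockdown library. Levels are given in CPM, counts divided by the TMM-scaled library size as edgeR gives them, as mean ± SD with n = 5. Genes were called up- or downregulated at an adjusted p under 0.01 in edgeR's quasi-likelihood test over all tested genes, the threshold of the study.

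DDX41 (ENSG00000183258.11, chr5:177511577-177516961, minus strand on GRCh38) stood at 49.1, 49.4, 47.3, 47.2 and 50.5 CPM in control replicates 1 to 5. The same replicate numbers after knockdown had 11.5, 13.7, 12.4, 11.2 and 12.3 CPM. All 5 knockdown libraries lay far below all 5 control libraries, as their labels say, and the log2 fold change was -1.99 ± 0.05 (SE, adjusted p = 4.47e-24). An exact two-sided permutation test of log2 CPM gave p = 0.00794, the smallest value that 5 against 5 libraries can give.

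Markers of the line were set beside those of other cell types. The mesenchymal genes SPARC, VIM, COL1A1 and FN1 were abundant, at 2807, 2465, 1875 and 1672 CPM in control libraries, while COL1A2, also a collagen of bone, had only 0.448 CPM. Among blood markers, CD3E and HBB were listed at 0 in all 10 libraries, and PTPRC and SPI1 had means below 1 CPM. Epithelial markers were low and moved with the groups. Their summed level was 41.7, 45.1, 40.6, 43.6 and 45.9 CPM in control replicates 1 to 5 and 22.5, 25.1, 23.1, 22.1 and 23.6 CPM after knockdown. Of these 5 genes 2 fell, CLDN4, the most abundant, and KRT5, while EPCAM and the cadherin CDH1 were not called, ESRP1 was too low to be tested, and CDH1 and ESRP1 had means under 1 CPM. The endothelial markers PECAM1, CDH5 and VWF summed to 4.66, 4.82, 5.59, 5.26 and 4.79 CPM in control libraries. After knockdown they summed to 1.52, 2.61, 2.90, 2.17 and 2.13 CPM, and CDH5 and VWF, the most abundant, fell while PECAM1 was too low to be tested. The share of counts on mitochondrial genes was 1.13 to 1.69% in control and 2.00 to 2.29% in knockdown libraries. The part of these markers and of the mitochondrial share in the results was not tested.

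After DDX41 knockdown, 46 of the 55 mitotic genes fell, 1 rose and 8 did not pass the test. Over all 16143 tested genes, 32.1% were called down and 30.3% up. The median log2 fold change of the mitotic genes was -0.31, beside -0.00 over all tested genes. A fall of more than 0.5 on the log2 scale was called in 18 of them (32.7%), beside 15.7% of all tested genes. In 46 of the genes every knockdown library lay below every control library, which was the case for 29.3% of all tested genes. Their summed level fell from 12114 ± 147 to 9521 ± 154 CPM, and the groups did not overlap. In bulk RNA, fewer cells in mitosis and less of these transcripts per cell cannot be told apart.

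FOXM1 stood alone in its sub-group. Among the sub-groups of more than 1 gene, the kinesins and the chromosomal passenger complex had the lowest medians, at -0.49 and -0.48, followed by the cyclins, kinases and CDC25 phosphatases at -0.38 and the kinetochore genes at -0.35. The condensin and chromosome structure genes had a median of -0.29, the spindle checkpoint genes -0.27, the spindle proteins -0.23 and the anaphase and cohesion genes -0.19. The cytokinesis genes stood on the other side of 0, with a median of 0.05 over only 3 genes. Differences between these medians were not tested, and each sub-group spans a wide range.

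FOXM1 (ENSG00000111206.12, chr12:2857680-2877174, minus strand), the transcription factor that activates many of the other genes in G2 and mitosis, fell furthest. It stood at 530.2, 487, 501, 528 and 500.1 CPM in control replicates 1 to 5. After knockdown the values were 199, 221, 222, 234 and 230.3 CPM. The lowest control library was thus above every knockdown library by a wide margin, and FOXM1 fell by 1.20 ± 0.04 (SE, adjusted p = 3.75e-19) on the log2 scale. Only 4.44% of all tested genes had a lower log2 fold change. Per kb of exon, its level was 104 CPM in control and 45.0 CPM in knockdown libraries, so that it ranked 6 among the 55 genes before and 17 after. ITFG2 on the opposite strand shares 15.9% of its exon bases and had 3.98% of its counts.

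Among the cyclins, kinases and CDC25 phosphatases, 9 of 10 genes fell and none rose, and their summed level went from 1894 ± 41.8 to 1425 ± 33.9 CPM. CDC25B (ENSG00000101224.17, chr20:3786772-3806121, plus strand), a phosphatase that activates CDK1 at the entry into mitosis, had 178, 176, 167, 167 and 178 CPM in the control libraries. Its knockdown values were 102, 107, 112, 104 and 105 CPM. The groups were far apart beside a spread of a few CPM within each, and CDC25B fell by 0.71 ± 0.03 (SE, adjusted p = 2.32e-18). PLK1, the kinase of centrosome maturation and mitotic entry, fell about as far, from 172 ± 6.96 to 104 ± 4.52 CPM, by 0.73 ± 0.03 (SE, adjusted p = 6.63e-18). CDC25C, the paralog of CDC25B, was the exception of this sub-group, with 38.6 ± 1.21 CPM in control and 40.2 ± 1.21 CPM in knockdown libraries, a log2 fold change of 0.06 ± 0.04 (SE, adjusted p = 0.173) and overlapping groups. FAM53C on the opposite strand shares 8.80% of the exon bases of CDC25C and had 1382 counts per library in the mean, beside 931 for CDC25C.

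CCNB1 (ENSG00000134057.14, chr5:69167135-69178245, plus strand), cyclin B1 and the partner of CDK1 in mitosis, had the highest level per kb of this sub-group. Control replicates 1 to 5 showed 476, 478, 443, 456 and 466 CPM. In the knockdown libraries it had 349, 343, 369, 366 and 360.1 CPM. It fell by 0.37 ± 0.03 (SE, adjusted p = 6.88e-13), with a gap between the groups that was larger than the range within either. CDK1 itself fell by 0.39, from 283 ± 5.41 to 216 ± 7.46 CPM. CCNA2, the cyclin of S phase and early mitosis, fell by 0.31, from 221 ± 7.12 to 178 ± 8.05 CPM. For CCNB2, the other B-type cyclin, the values were closer, and it fell by 0.18, from 177 ± 3.40 to 156 ± 4.04 CPM. AURKA, the kinase of spindle poles, fell by 0.51, from 172 ± 5.65 to 121 ± 2.83 CPM. NEK2, which separates centrosomes, fell by 0.29, from 94.3 ± 2.10 to 77.1 ± 3.34 CPM, and CDCA3, a trigger of mitotic entry that acts on WEE1, by 0.51, from 99.1 ± 2.10 to 69.4 ± 1.12 CPM. In each of these 6 genes the knockdown libraries lay below all control libraries.

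All 5 spindle checkpoint genes fell, with a summed level that went from 834 ± 14.4 to 675 ± 17.4 CPM. BUB1B (ENSG00000156970.12, chr15:40161023-40221123, plus strand), which encodes BUBR1, a part of the complex that restrains the anaphase-promoting complex, had 143, 136, 146, 145 and 142 CPM in control libraries. After knockdown it had 93.2, 92.8, 98.1, 102 and 93.5 CPM. Each knockdown value was below each control value, and BUB1B fell by 0.57 ± 0.03 (SE, adjusted p = 5.79e-16). BUB1 (ENSG00000169679.14, chr2:110637528-110678063, minus strand), the kinase that marks centromeric chromatin for shugoshin, had the highest level per kb of the checkpoint genes. Its control values were 268, 255, 265, 265 and 256 CPM. Its values after knockdown were 197, 195, 212, 208 and 206 CPM, again without overlap, and it fell by 0.37 ± 0.03 (SE, adjusted p = 1.69e-12). TTK, the kinase MPS1 that starts the checkpoint signal, fell by 0.27, from 80.5 ± 1.57 to 66.6 ± 1.72 CPM. MAD2L1, which binds CDC20, fell by 0.27, from 141 ± 3.22 to 117 ± 5.07 CPM. BUB3, the adaptor that both BUB1 and BUBR1 need, fell least, by 0.11 ± 0.03 (SE, adjusted p = 0.00075).

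Of the 6 anaphase and cohesion genes, 4 fell and none rose, and their summed level went from 951 ± 19.7 to 791 ± 18.3 CPM. UBE2C (ENSG00000175063.16, chr20:45812576-45816957, plus strand), the ubiquitin-conjugating enzyme of the anaphase-promoting complex, stood at 121, 126, 120.3, 125 and 129 CPM in control libraries. Knockdown libraries had 74.6, 74.5, 83.9, 78.4 and 83.2 CPM. No knockdown library reached the control range, and UBE2C fell by 0.66 ± 0.03 (SE, adjusted p = 2.93e-16). CDC20 (ENSG00000117399.13, chr1:43358981-43363203, plus strand), the activator of the same complex and the target of the checkpoint, had the highest level per kb of the 55 genes in both groups, 192 and 161 CPM per kb. Replicates 1 to 5 had 405, 397, 368, 373 and 390.4 CPM in control cells. The knockdown replicates had 316, 316, 329, 325 and 334 CPM. CDC20 fell by 0.26 ± 0.03 (SE, adjusted p = 4.68e-09), less than its partner enzyme. ESPL1, which encodes separase, the protease that cuts cohesin, fell by 0.43, from 148 ± 2.704 to 110.2 ± 3.38 CPM. SGO2, a protector of centromeric cohesion, fell by 0.12, from 101.2 ± 2.55 to 93.0 ± 2.86 CPM. PTTG1, the securin that holds separase inactive, had 152 ± 3.04 CPM in control and 149 ± 5.27 CPM in knockdown libraries and was not called, with a log2 fold change of -0.03 ± 0.03 (SE, adjusted p = 0.374), and of -0.01 without knockdown replicate 2. SGO1, the other shugoshin, stood at 38.7 ± 1.88 and 35.8 ± 1.45 CPM, had a log2 fold change of -0.11 ± 0.04 (SE, adjusted p = 0.0201) and was not called either. Without control replicate 3 its adjusted p was 0.00945, just inside the threshold, at a log2 fold change of -0.13.

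The kinesins, motors that move along microtubules or shorten them, fell without exception among the 6 genes, and their summed level went from 1329 ± 25.4 to 1013 ± 16.6 CPM. KIF2C (ENSG00000142945.12, chr1:44739818-44767767, plus strand), the depolymerase that corrects wrong attachments at centromeres, had both the smallest adjusted p and the highest level per kb of the 6. Control libraries had 291, 281, 285, 281 and 280.3 CPM. Knockdown libraries had 189.5, 189.7, 191, 192 and 199 CPM. Within each group the values lay close together, with an SD of 4.38 and 3.89 CPM, and KIF2C fell by 0.56 ± 0.03 (SE, adjusted p = 1.06e-17). KIF20A, a motor of the central spindle, and KIF18A, which limits the swings of chromosomes at the metaphase plate, fell by 0.54, from 236 ± 6.496 to 163 ± 3.19 CPM, and by 0.51, from 79.9 ± 1.66 to 55.9 ± 1.35 CPM, in that order. KIF4A, a chromosome-bound motor that also works at the central spindle with PRC1, fell by 0.47, from 181 ± 4.96 to 131 ± 2.90 CPM. KIF11, which pushes the spindle poles apart, fell by 0.31, from 214 ± 3.31 to 173 ± 3.51 CPM. KIF23, the motor of the centralspindlin complex in cytokinesis, fell least, from 335 ± 8.22 to 298 ± 8.89 CPM, by 0.17 ± 0.03 (SE, adjusted p = 3.13e-06).

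Of the 8 kinetochore and centromere genes, 7 fell and none rose, and their summed level went from 1022 ± 58.4 to 838 ± 16.0 CPM. SPC24 (ENSG00000161888.11, chr19:11131520-11155807, minus strand), a subunit of the NDC80 complex that grips microtubules, had 33.2, 36.5, 33.6, 35.3 and 37.2 CPM in control libraries. After knockdown it had 18.6, 17.9, 18.7, 18.4 and 19.7 CPM. Its knockdown values were tightly grouped well below the controls, and it fell by 0.91 ± 0.05 (SE, adjusted p = 9.04e-17), the second largest fall of the 55 genes. NDC80 (ENSG00000080986.12, chr18:2571557-2616635, plus strand), the microtubule-binding subunit, had the highest level per kb of the 8. The control values were 227, 225, 235, 232 and 236 CPM. The knockdown values were 187, 186, 189, 193 and 188 CPM, without overlap, and NDC80 fell by 0.29 ± 0.03 (SE, adjusted p = 4.11e-11). NUF2, its partner in the same arm of the complex, fell by only 0.14, from 109 ± 1.36 to 98.6 ± 4.01 CPM. SPC25, the partner of SPC24, was counted far less than the other 3 subunits, with 22 to 54 reads per library or 1.09 CPM per kb in control libraries, against 12.4 for SPC24. SPC25 fell by 0.55 ± 0.16 (SE, adjusted p = 0.00284). It was at -0.49 without control replicate 4 (adjusted p = 0.0109), -0.42 without knockdown replicate 3 (adjusted p = 0.017) and -0.54 in DESeq2's Wald test (adjusted p = 0.0138), and was called in none of these.

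CENPE, the kinetochore motor that carries chromosomes to the metaphase plate, fell from 89.9 ± 7.55 to 52.0 ± 3.52 CPM, by 0.79 ± 0.06 (SE, adjusted p = 5.21e-09). CENPA, the histone H3 variant that marks the centromere, fell by 0.41, from 73.8 ± 2.22 to 55.4 ± 3.20 CPM. KNL1, the scaffold that recruits the BUB proteins, fell by 0.20, from 123 ± 8.42 to 107 ± 5.35 CPM. CENPF, a large protein of the outer kinetochore, had 348, 301, 404, 396 and 343 CPM in control libraries. With 325, 337, 310.5, 302 and 311 CPM after knockdown the groups overlapped, and at a log2 fold change of -0.18 ± 0.08 (SE, adjusted p = 0.0729) CENPF was not called. Control replicate 2 was its lowest control value, and without that library its log2 fold change was -0.23 with an adjusted p of 0.000865. Without any other single library it was not called, and it was nearest 0, at -0.13, without control replicate 3.

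All 4 genes of the chromosomal passenger complex fell, and their summed level went from 665 ± 21.5 to 505 ± 14.9 CPM. This complex brings the kinase AURKB to centromeres and later to the central spindle. CDCA8 (ENSG00000134690.10, chr1:37692481-37709719, plus strand), which encodes borealin, had 138, 133, 127, 126 and 127 CPM in control libraries. Its knockdown values were 76.5, 81.9, 83.6, 85.1 and 81.2 CPM. The groups were separated by more than the whole range of either, and CDCA8 fell by 0.67 ± 0.03 (SE, adjusted p = 4.25e-17). BIRC5 (ENSG00000089685.14, chr17:78214186-78225636, plus strand), which encodes survivin, was the most abundant of the 4 per kb. Control replicates 1 to 5 had 362, 382, 345, 353 and 365 CPM. Knockdown replicates 1 to 5 had 296, 278, 301, 308 and 301 CPM, all below the controls, and BIRC5 fell by 0.28 ± 0.03 (SE, adjusted p = 1.59e-09). AURKB fell by 0.53, from 56.6 ± 3.55 to 39.3 ± 2.29 CPM, and INCENP, the scaffold that activates it, by 0.43, from 117 ± 5.02 to 86.8 ± 2.32 CPM.

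The spindle proteins were more mixed, with 4 of 6 genes down, none up and a summed level that went from 1529.8 ± 18.7 to 1214 ± 23.9 CPM. CKAP2 (ENSG00000136108.14, chr13:52455429-52476628, plus strand), a microtubule-stabilizing protein, had 166, 162, 168, 163 and 165 CPM in control libraries. After knockdown the libraries had 109, 109.9, 107, 110.5 and 103 CPM. It fell by 0.61 ± 0.03 (SE, adjusted p = 1.02e-17), with an SD of 2.51 and 2.97 CPM within the groups. TPX2 (ENSG00000088325.15, chr20:31739271-31801805, plus strand), which activates AURKA and nucleates microtubules around chromosomes, had the highest level per kb of the sub-group. Its values were 498, 484, 483, 490.3 and 487 CPM in control libraries. They were 316, 328, 342, 343 and 345 CPM in knockdown libraries. TPX2 fell by 0.54 ± 0.03 (SE, adjusted p = 5.56e-17), and knockdown replicate 1, its lowest library, was also the lowest for TOP2A and FOXM1. NUSAP1 and DLGAP5, which bundle and stabilize spindle fibres, fell by 0.29, from 307 ± 4.36 to 250.1 ± 5.35 CPM, and by 0.17, from 343 ± 4.71 to 304 ± 7.39 CPM, in that order. HMMR, a spindle pole protein that is also a receptor of hyaluronan, had 95.8 ± 1.81 CPM in control and 94.8 ± 3.72 CPM in knockdown libraries, with a log2 fold change of -0.02 ± 0.03 (SE, adjusted p = 0.673) that went from -0.03 without knockdown replicate 4 to 0.01 without knockdown replicate 2. ASPM, which focuses microtubules at the poles, had 131 ± 11.6 and 123 ± 5.75 CPM, with a log2 fold change of -0.10 ± 0.05 (SE, adjusted p = 0.115), and of -0.05 without control replicate 3. Neither was called, and in both the groups overlapped.

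The 3 cytokinesis genes went different ways. ANLN (ENSG00000011426.10, chr7:36389821-36453791, plus strand), which encodes anillin, the scaffold of the contractile ring, had 671, 629, 655, 636 and 630.1 CPM in control libraries. In knockdown libraries it had 747, 736, 779, 767 and 729 CPM. All 5 knockdown libraries lay above all 5 control libraries, and ANLN rose by 0.22 ± 0.03 (SE, adjusted p = 1.41e-08) on the log2 scale. It kept this call in each of the 16 alternative fits. PRC1 (ENSG00000198901.13, chr15:90966040-90995629, minus strand), which bundles the microtubules of the central spindle, had 277, 266, 274, 278 and 266 CPM in control libraries. The knockdown libraries had 243, 235, 250.1, 248 and 246 CPM, below the control range, and PRC1 fell by 0.16 ± 0.03 (SE, adjusted p = 6.42e-06). ECT2, which activates RHOA at the division plane, had 167 ± 4.34 CPM in control and 174 ± 5.42 CPM in knockdown libraries, and with a log2 fold change of 0.05 ± 0.03 (SE, adjusted p = 0.0932) it was not called. The order of levels per kb changed with these differences. ANLN ranked 5 among the 55 genes in control libraries with 107 CPM per kb and 3 after knockdown with 125, above TOP2A.

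Condensin and chromosome structure genes fell in 5 of 6 cases, none rose, and their summed level went from 2297 ± 83.5 to 1669 ± 27.7 CPM. TOP2A (ENSG00000131747.14, chr17:40388525-40417896, minus strand), the topoisomerase that untangles sister chromatids, had the highest CPM of the 55 genes in the control libraries. It stood at 1182, 1128, 1227, 1192 and 1155 CPM in control libraries. After knockdown it stood at 668, 721, 701, 729 and 712 CPM. No library of one group came near the range of the other, and TOP2A fell by 0.74 ± 0.03 (SE, adjusted p = 8.74e-20). Among the condensin subunits, NCAPH, the kleisin of condensin I, fell by 0.40, from 177 ± 1.152 to 134 ± 4.59 CPM. SMC4, an ATPase arm, fell by 0.27, from 341 ± 11.3 to 283 ± 4.72 CPM, and NCAPG, a HEAT-repeat subunit of condensin I, by 0.22, from 128 ± 0.754 to 110.1 ± 4.18 CPM. SMC2, the other ATPase arm, had 229 ± 6.28 CPM in control and 239.8 ± 4.85 CPM in knockdown libraries. Its log2 fold change of 0.06 ± 0.03 (SE, adjusted p = 0.0372) did not pass the threshold of 0.01.

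MKI67, which encodes Ki-67, the surfactant-like coat of mitotic chromosomes and the usual stain for proliferating cells, had 219.6, 209.7, 283, 271 and 236 CPM in control libraries. The knockdown libraries had 192, 206, 187, 191 and 204 CPM. The lowest control library was only just above the highest knockdown library, and MKI67 fell by 0.31 ± 0.09 (SE, adjusted p = 0.00944), barely inside the threshold. Its adjusted p was 0.0116, 0.0189 and 0.0166 without control replicates 3, 4 and 5, each left out alone. It was 0.0224, 0.0153, 0.0233, 0.0225 and 0.0164 without knockdown replicates 1 to 5, again 1 at a time, so that these 8 left-out libraries each ended the call. The log2 fold change then lay between -0.33 and -0.26. The adjusted p was also above 0.01 without the filter on low counts, at 0.0233, and barely above it with DESeq2 size factors.

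MKI67 is among the longest transcripts of the set. The 4 genes of the 55 with a main transcript of 9000 bases or more were MKI67, ASPM, CENPF and KNL1. Their coefficients of variation among control libraries were 6.85 to 13.0%, with a median of 10.3%, beside a median of 2.68% in the other 51 genes, whose range of 0.587 to 11.6% overlaps theirs. Over all 55 genes, length and this coefficient had a Spearman correlation of only 0.10, and the 4 were grouped after their values were seen. All 4 were high in control replicates 3 and 4 and low in control replicates 1, 2 and 5, as measured against the mean of the group. Their median deviation was -0.06, -0.17, 0.19, 0.11 and -0.05 on the log2 scale in control replicates 1 to 5. The other 895 tested genes of this length had median deviations of -0.03, -0.05, 0.07, 0.04 and -0.03, with the same signs and smaller sizes. Relative to the mean of all 10 libraries, these other long genes were at -0.06, -0.08, 0.04, -0.0006 and -0.05 in control replicates 1 to 5. In knockdown replicates 1 to 5 they were at 0.04, 0.06, 0.04, -0.01 and 0.02, mostly above the control values, although the ranges overlap. Their part in the calls of the long mitotic genes was not tested.

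Across the 55 genes, the log2 fold change had a Spearman correlation of -0.45 with the GC content of the main transcript, 0.16 with its length, 0.11 with its number of exons and 0.04 with the mean level in control libraries. These are descriptions across genes of the same libraries, and genes are not independent replicates. Over the 15936 tested genes with a matching annotation, the correlation with GC content was -0.13. The mitotic transcripts were poorer in GC, with a median of 41.9% beside 48.2%. With a GC correction of each library, SGO1, HMMR and ASPM were called down as well and MKI67 was not, at log2 fold changes of -0.18, -0.10, -0.17 and -0.29. CDC20 and SGO2 kept their calls at -0.16 and -0.21, and ECT2 and SMC2, not called in either fit, went from 0.05 and 0.06 to -0.03 and -0.01.

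Ratios between partner genes were taken within each library, so that they do not depend on how libraries are scaled. They were not corrected for GC content, which differs within some pairs. It was 59.1% in CDC25B and 46.3% in CDC25C, and 45.7% in PTTG1 and 57.0% in ESPL1. Of 17 pairs of subunits, enzyme and activator, or paralogs, 12 differed between the groups at an adjusted p under 0.05, 7 higher and 5 lower after knockdown, in two-sided exact permutation tests of the log2 ratio adjusted over the 17 pairs. The share that differs among pairs of other genes was not measured. With 30.3% of all tested genes called up and 32.1% called down, the count of 12 is not read as particular to these partners. The ratio that moved most was that of the CDC25 paralogs. The log2 ratio of CDC25B to CDC25C went from 2.17 ± 0.08 in control to 1.40 ± 0.07 in knockdown libraries, a difference of -0.77 (95% interval -0.88 to -0.66, exact permutation test, adjusted p = 0.0112). For separase and its inhibitor, the log2 ratio of PTTG1 to ESPL1 went from 0.04 ± 0.04 in control to 0.44 ± 0.04 in knockdown libraries. That difference was 0.40 (95% interval 0.34 to 0.46, exact permutation test, adjusted p = 0.0112).

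Within the checkpoint, BUB3 fell less than its partners. The log2 ratio of BUB1B to BUB3 differed by -0.46 (95% interval -0.53 to -0.39, exact permutation test, adjusted p = 0.0112), and that of BUB1 to BUB3 by -0.26 (95% interval -0.33 to -0.19). In the passenger complex, borealin transcripts fell most, and the log2 ratios of BIRC5 and INCENP to CDCA8 differed by 0.39 and 0.25. The ATPase arms of condensin differed too. The log2 ratio of SMC2 to SMC4 was -0.57, -0.55, -0.58, -0.58 and -0.58 in control replicates 1 to 5. It was -0.22, -0.30, -0.25, -0.21 and -0.21 after knockdown. Control values lay within a few hundredths of each other, and the difference was 0.33 (95% interval 0.29 to 0.37, exact permutation test, adjusted p = 0.0112). NCAPG to NCAPH differed by 0.18, PRC1 to its motor partner KIF4A by 0.31, and CCNA2 to CDK1 by 0.08. The ratios of CCNB1 to CCNB2 and of NDC80 to NUF2 differed by -0.19 and -0.15. In all 12 of these pairs the libraries of the groups did not overlap, and each had the smallest p that 5 against 5 libraries allow, 0.00794 before and 0.0112 after adjustment in the exact permutation test.

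The other 5 pairs did not pass. The log2 ratio of CCNB1 to CDK1, the subunits of the main mitotic kinase, went from 0.71 ± 0.03 in control to 0.73 ± 0.05 in knockdown libraries. Its difference was 0.01 (95% interval -0.04 to 0.07, exact permutation test, adjusted p = 0.632). AURKA to AURKB and SGO1 to SGO2 differed by 0.02 (95% interval -0.07 to 0.11) and 0.01 (95% interval -0.10 to 0.12). AURKA to its activator TPX2 differed by 0.04 (95% interval -0.02 to 0.10, exact permutation test, adjusted p = 0.135). That pair passed without knockdown replicate 4, at 0.05 with an adjusted p of 0.0415 in the exact permutation test. SPC24 to SPC25 had a wide interval, -0.77 to 0.07 around -0.35, with few SPC25 reads behind it. Without knockdown replicate 3 it passed at -0.50, adjusted p = 0.0208 in the exact permutation test.

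Promoters of the genes were read from RefSeq on GRCh38.p14, from 250 bases before to 50 bases after the start of transcription, and 47 of the 55 genes matched by symbol. TTK, AURKA, BUB3, TPX2, FOXM1, BIRC5, UBE2C and KNL1 had no match. Where a gene has several starts, any of its windows counted. The CHR, cell cycle genes homology region, was searched as TTTGAA or TTCGAA, the CCAAT box as CCAAT, and the E2F site as TTTGGCGC, TTTCCCGC, TTTCGCGC or TTTGCCGC, each on both strands. The motifs were free to overlap each other. A CHR was present in 35 of 47 mitotic promoters (74.5%), beside 19.5% of all 27305 genes in the promoter table and 15.9% of the tested genes in it. A CCAAT box was present in 37 (78.7%), beside 39.7% and 42.6%. Both were present in 28 (59.6%), beside 7.85% of all and 6.54% of tested genes. An E2F site by these letters was found in 3, CDK1, CENPA and NUSAP1 (6.38%), a share about that of tested genes (6.31%, and 3.99% of all genes).

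The CHR was present both in genes that fell and in genes that did not. Of the 35 genes with a CHR, 27 fell, 1 rose and 7 were not called (median log2 fold change -0.29). Of the 12 without one, 11 fell and 1 was not called, with a median of -0.46. ANLN, the gene that rose, holds a CHR and no CCAAT box in this window, and of the 28 genes with both motifs 22 fell and 6, CDC25C, HMMR, ECT2, ASPM, CENPF and SGO1, were not called. Over the 11491 tested genes in the promoter table, 35.0% of those with a CHR were called down and 33.4% of those without. Of 751 tested genes with both motifs, 37.4% were called down, beside 33.4% of the others. In the 150 bases before the start alone, 264 tested genes hold both, and 47.0% of these were called down, beside 33.3%. In that shorter window 16 of 20 mitotic genes with both motifs and 22 of 27 without both fell. These shares are descriptions and include the mitotic genes themselves.

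Of 11 genes with a CHR in the stretch of the 150 bases before the start that no GENCODE exon covers, the 3 with the lowest and the 3 with the highest log2 fold changes are shown, as examples of what these promoters look like. They are given 5′ to 3′ on the strand of the gene, each ending before the first annotated exon base, with CHR and CCAAT letters of either strand in capitals. CDC25B (chr20:3796160-3796290, plus strand, log2 fold change -0.71), whose stretch lies in an intron of longer transcripts of the gene, KIF4A (chrX:70289954-70290103, plus strand, -0.47) and ESPL1 (chr12:53268149-53268298, plus strand, -0.43) are followed by DLGAP5 (chr14:55191609-55191735, minus strand, -0.17), ASPM (chr1:197146695-197146819, minus strand, -0.10) and ECT2 (chr3:172750576-172750681, plus strand, 0.05).
CDC25B: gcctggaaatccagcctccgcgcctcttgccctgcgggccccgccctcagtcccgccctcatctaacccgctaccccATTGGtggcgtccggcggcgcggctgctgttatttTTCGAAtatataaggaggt
KIF4A: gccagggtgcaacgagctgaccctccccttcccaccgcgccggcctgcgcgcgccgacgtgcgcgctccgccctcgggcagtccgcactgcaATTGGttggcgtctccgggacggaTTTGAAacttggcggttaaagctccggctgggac
ESPL1: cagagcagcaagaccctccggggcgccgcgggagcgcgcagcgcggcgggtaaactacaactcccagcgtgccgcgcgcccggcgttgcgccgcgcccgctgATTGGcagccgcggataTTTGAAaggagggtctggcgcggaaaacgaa
DLGAP5: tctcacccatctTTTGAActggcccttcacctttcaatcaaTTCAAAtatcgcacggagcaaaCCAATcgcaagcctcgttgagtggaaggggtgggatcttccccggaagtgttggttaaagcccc
ASPM: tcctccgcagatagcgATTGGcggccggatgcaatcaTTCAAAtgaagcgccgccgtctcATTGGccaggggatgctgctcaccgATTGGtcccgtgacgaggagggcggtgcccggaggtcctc
ECT2: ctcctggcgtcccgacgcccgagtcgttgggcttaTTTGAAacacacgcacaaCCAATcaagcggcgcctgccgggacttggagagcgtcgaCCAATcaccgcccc
Counted from the RefSeq start, which in CDC25B, DLGAP5, ASPM and ECT2 lies past the end of the printed stretch, the CHR begins 38 bases before the start in CDC25B, 34 in KIF4A, 31 in ESPL1, 138 and 109 in DLGAP5, 113 in ASPM and 115 in ECT2. Each of the 6 also holds at least 1 CCAAT box. The 6 genes were taken from the ends of the range of fold changes, so their positions are no comparison of genes that fell more and less. These matches describe letters and not bound sites.

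Other genes of the same machinery came from lists made by name. Over these 7 lists together, 29 of 151 tested genes rose, 79 fell and 43 did not pass the test (median log2 fold change -0.12). That is 52.3% down and 19.2% up, beside 32.1% and 30.3% of all tested genes, and the difference from the 55 genes was not tested. Among other kinetochore and centromere genes, 5 of 34 tested genes rose, 18 fell and 11 did not pass the test (median log2 fold change -0.13). NSL1, a subunit of the MIS12 complex at the base of the kinetochore, fell from 42.8 ± 2.00 to 18.5 ± 1.46 CPM, by 1.21 ± 0.05 (SE, adjusted p = 6.05e-19). ZWINT, which binds KNL1, fell from 233 ± 7.79 to 143 ± 5.12 CPM, by 0.71. CENPH, of the inner kinetochore, and MIS12, a partner of NSL1, rose by 0.25 and 0.23. DSN1 and PMF1, the other subunits of the MIS12 complex, fell by 0.29 and 0.26, so that MIS12 was the 1 of its 4 subunits that rose. After GC correction PMF1 had a log2 fold change of -0.17 and was still called. SKA1, of the microtubule-tracking SKA complex, was listed at 0 in all 10 libraries.

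In the list of other condensin and cohesin genes, 4 of 18 tested genes rose, 11 fell and 3 did not pass the test (median log2 fold change -0.17). SMC1A, an ATPase arm of cohesin, fell from 355 ± 14.7 to 215 ± 1.48 CPM, by 0.73 ± 0.03 (SE, adjusted p = 1.89e-19), and NCAPD2, a subunit of condensin I, fell from 796 ± 18.3 to 597 ± 13.8 CPM, by 0.41. WAPL, which releases cohesin from DNA, and STAG1, a cohesin subunit, rose by 0.13 and 0.12. With the GC correction these were 0.08 and 0.06 and neither passed, with adjusted p-values of 0.0115 and 0.0292. Among the genes of the anaphase-promoting complex and its regulators, 4 of 17 tested genes rose, 6 fell and 7 did not pass the test (median log2 fold change -0.03). FBXO5, the inhibitor EMI1 of that complex, fell by 0.36 and CDC27, a scaffold subunit, by 0.21, while ANAPC1 and ANAPC13, also subunits, rose by 0.44 ± 0.04 (SE) and 0.41 ± 0.04 (SE). The shares called, 35.3% down and 23.5% up, were near those of all tested genes.

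The list of other kinesin, spindle and centrosome genes had the lowest median of these 7, and there 2 of 35 tested genes rose, 23 fell and 10 did not pass the test (median log2 fold change -0.22). PSRC1, a spindle protein that works with depolymerizing kinesins, fell from 90.9 ± 3.62 to 44.1 ± 1.78 CPM, by 1.04 ± 0.04 (SE, adjusted p = 1.38e-20), and SPAG5, also called astrin, fell from 229.8 ± 7.77 to 152 ± 4.72 CPM, by 0.59. TUBGCP2 and NEDD1, which belong to and recruit the gamma-tubulin ring, rose by 0.40 and 0.18, but with the GC correction NEDD1 was at 0.10 and did not pass (adjusted p = 0.0117). KIF15 was listed at 0 in all 10 libraries and KIFC1 had at most 1 read in any library. In other cytokinesis genes, 6 of 15 tested genes rose, 4 fell and 5 did not pass the test (median log2 fold change -0.03). That is 40% up and 26.7% down, beside 30.3% and 32.1% of all tested genes. The list is small, and the difference from all tested genes was not tested. MYH9, the heavy chain of non-muscle myosin II in the contractile ring, rose from 1414 ± 27.6 to 1801 ± 47.6 CPM, by 0.35 ± 0.02 (SE, adjusted p = 2.54e-13), and SPAST, which encodes spastin, a severing enzyme of late abscission, rose by 0.43. CIT, citron kinase, and KIF13A, a motor of vesicle transport, fell by 0.57 and 0.67.

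For other regulators of mitotic entry and exit, 5 of 19 tested genes rose, 11 fell and 3 did not pass the test (median log2 fold change -0.12). PPP1CB, a catalytic subunit of protein phosphatase 1, fell from 289 ± 9.71 to 153 ± 11.0 CPM, by 0.92 ± 0.04 (SE, adjusted p = 5.25e-15), and MELK, a kinase of proliferating cells, fell by 0.65. CDC14A, a phosphatase, rose from 11.4 ± 0.958 to 21.1 ± 0.652 CPM, by 0.89 ± 0.06 (SE, adjusted p = 2.57e-14), and CDC25A rose by 0.28. The 3 CDC25 phosphatases therefore went 3 ways, with CDC25A up, CDC25B down and CDC25C not called. Genes of the DREAM and B-MYB complexes, which bind the CHR to repress or activate, form a list of few genes. In it 3 of 13 tested genes rose, 6 fell and 4 did not pass the test (median log2 fold change -0.01), that is 46.2% down and 23.1% up beside 32.1% and 30.3% of all tested genes. LIN52, of the shared MuvB core, fell from 43.4 ± 1.33 to 27.4 ± 1.32 CPM, by 0.66, and RBBP4, a histone-binding subunit of that core, by 0.48. E2F5, a repressor E2F of DREAM, rose from 8.52 ± 0.613 to 15.1 ± 0.938 CPM, by 0.82 ± 0.06 (SE, adjusted p = 2.26e-12), and DYRK1A, the kinase that assembles DREAM by acting on LIN52, rose by 0.42. MYBL2, which encodes B-MYB, had a log2 fold change of -0.01 ± 0.03 (SE, adjusted p = 0.839) and was not called.

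G1/S genes, which are switched on earlier in the cycle, served as the closest other programme. In that list 2 of 34 tested genes rose, 22 fell and 10 did not pass the test (median log2 fold change -0.20), and the summed level went from 6109 ± 102 to 5231 ± 134 CPM. GINS2, of the replicative helicase, fell from 88.4 ± 2.68 to 53.4 ± 1.80 CPM, by 0.73 ± 0.03 (SE, adjusted p = 1.13e-17), and MCM3, also of the helicase, fell from 375 ± 7.91 to 252 ± 7.41 CPM, by 0.57. CDC6, which loads the helicase, and MCM6 rose by 0.24 and 0.11. As shares of the tested genes, 83.6% of the mitotic genes and 64.7% of the G1/S genes were called down, and the difference between the lists was not tested.

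Some of these counts could be split otherwise by another counting. Exons of 21 of the 55 genes overlap those of a neighbour with counts of its own, and for 9, CENPA, CCNA2, CDC25C, KIF4A, KIF20A, NCAPG, NUSAP1, SGO2 and SPC24, a neighbour's counts reached 10% or more of theirs. NCAPG shares 33.7% of its exon bases with LCORL on the opposite strand. Whether counting used the strand, and how multi-mapping reads were treated, is not given in the sources used here, so values of these genes and of CDC20, which has a copy CDC20P1 at 24.2 CPM in control and 19.8 CPM in knockdown libraries, carry this uncertainty.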

How the data were processed

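RNA of 10 U2OS libraries was sequenced. The authors made stranded libraries from polyadenylated RNA, mapped single reads to hg38 with STAR 2.7 (version per the submitters' processing notes) and counted them per gene with featureCounts 1.6, and the deposited tables hold unnormalized counts, whole numbers of reads for each gene. Groups and replicate numbers came from the sample labels. The methods of the study speak of more pooled samples than the 10 used here.

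Annotation came from GENCODE 44 (GRCh38, the build of the mapping) by gene identifier without version, and 98.7% of tested genes (15936) and all 55 mitotic genes matched. The main test was edgeR's (version 4.0.16, in R 4.3.3) quasi-likelihood F test with Benjamini-Hochberg adjustment, after filterByExpr on the groups, TMM scaling and a robust fit, with a biological coefficient of variation of 3.65%. Standard errors came from the F statistic. Pairs of libraries of 1 group differed by more than sampling noise, with a chi-square per degree of freedom of 1.76 to 5.67 in 20 pairs. Ratios used counts with 0.5 added and exact two-sided permutation tests, in Python 3.11.15 with scipy 1.17.1 and pandas 2.3.3, and their 95% intervals assume normal errors. Levels per kb used the union of exons of a gene, and the main transcript is GENCODE's canonical one. Alternatives changed scaling, filter, test (DESeq2 1.42.0), threshold, libraries, GC content and replicate block.

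The mitotic genes, their sub-groups, the other lists and the pairs were chosen with earlier results of these data known. Values in every library are given for DDX41 and, in each sub-group, for the gene with the smallest adjusted p, the called gene moving the other way with the smallest adjusted p, and the gene with the highest mean CPM per kb. Of each other list, the 2 called genes in each direction with the smallest adjusted p are named. Genes outside this rule whose values are printed in full, such as MKI67 and CENPF, the genes DSN1 and PMF1, and the grouping of long transcripts were chosen after their values were seen. One marker gene and 1 overlapping gene are not reported here.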

Additional observations from a re-analysis of the deposited data

Results flagged for a closer look

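In 14 of 214 groups of 5 libraries, over the named genes and ratios, 1 library stood apart, with a gap to its nearest neighbour that took up more of the group's range than Dixon's 95% limit for 5 values. Chance flags about 1 in 20 groups, and these were 6.54%.

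Among the mitotic genes, CCNB2 was high in siCtrl 2 at 183 CPM, with 174 to 177 CPM in the other 4 libraries of the group. AURKA was low in siCtrl 3 at 162 CPM, beside 173 to 176. BUB3 was high in siCtrl 1 at 218 CPM, beside 204 to 207. CENPA was high in siDDX41 4 at 60.9 CPM, above the other 4 knockdown libraries. SGO2 and SMC4 were low in siDDX41 5 at 88.0 and 275 CPM, beside 93.5 to 95.4 and 283 to 287. In none of these 6 genes did the library reach the range of the other group.

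Of the other genes, NSL1 and NEDD1 were high in siDDX41 4 at 21.0 and 75.5 CPM, and PSRC1 was low there at 41.0 CPM. WAPL was low in siCtrl 2 at 109 CPM, MELK was high there at 174 CPM, and DYRK1A was high in siDDX41 3 at 42.7 CPM. The log2 ratio of CCNB1 to CDK1 was low in siCtrl 3 at 0.66, beside 0.72 to 0.73, and that of PRC1 to KIF4A was low in siDDX41 2 at 0.81, beside 0.90 to 0.93. No library was the one apart in more than 4 of the 14 cases.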

How the results depend on the processing

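Of the 55 mitotic genes, 49 had the same call in all 16 alternative fits, 44 of them called down, no called gene changed sign, and the 6 that changed (SGO1, CENPF, SPC25, HMMR, ASPM and MKI67) are given with the results. The count of downregulated mitotic genes was 44 to 47 when libraries were left out in turn, and their median log2 fold change -0.32 to -0.30. With the GC correction the median was -0.35, and the cause was not tested. At an adjusted p under 0.05, 2 mitotic genes rose, since SMC2 then passed. With a log2 fold change of more than 0.5 required as well, 0 rose and 18 fell in edgeR, where no mitotic gene had a log2 fold change above 0.5 at any p, and of all tested genes 1584 rose and 2534 fell, as fewer genes can pass. Partner ratios that differed numbered 12 to 13 without single libraries. In the 150 bases before the start alone, 51.1% of mitotic promoters held a CHR and 2.13% an E2F site, as the window is shorter. Same-numbered libraries did not deviate together (correlations of -0.0524 to 0.0446), and differently numbered pairs had correlations of -0.0574 to 0.0796. Deviations within a group also hold counting noise, so this check cannot settle whether the numbers pair the libraries. With the replicate block, 45 mitotic genes fell and 1 rose, beside 5097 and 4790 of all genes, and MKI67 was not called (adjusted p = 0.0400). A sign-flip test of 5 same-numbered differences cannot go below an exact p of 0.0625, so it says nothing of the ratios. Depth limits SPC25 most, and counts near 0 in SKA1, KIF15 and KIFC1 do not show that these genes are off.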
